A study of Mus musculus with 10 samples.

Results

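Slc7a11, which encodes the cystine-importing subunit of the cystine/glutamate antiporter xCT, was described here with 9 further genes of cystine uptake and the NRF2 programme: Slc3a2, Gclc, Gclm, Nqo1, Hmox1, Txnrd1, Srxn1, Gsr and Nfe2l2. These 10 genes, of 47643 listed in the deposited tables, were taken by name. The set was selected on the exon reads of Slc7a11, which were higher in MRC libraries 1 to 3, so its own levels are a description without a test. The other 9 were tested, and all 10 were among the 12127 genes with enough reads for a test.

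The 10 RNA-seq libraries came from mesenchymal cells of Peyer's patches, the lymphoid follicles of the small intestine wall, of wild-type C57BL/6 mice, sorted as podoplanin-positive and negative for CD45, EpCAM1, TER119 and CD31. Cells negative for the adhesion molecule MAdCAM1 were called MCi (n = 5 libraries) and MAdCAM1-positive cells MRC (n = 5 libraries); no age or treatment is given, and the only contrast is MRC minus MCi. The labels do not say which libraries come from separate animals or whether animals were pooled, so a p-value here reflects only how far these libraries spread, which may be technical. Because each library holds RNA of many cells, fewer cells of a type and less RNA per cell cannot be told apart.

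NRF2, the product of Nfe2l2, is a transcription factor that KEAP1 holds at low levels by directing its degradation. Oxidants and electrophiles release it from KEAP1, and with small MAF proteins it binds antioxidant response elements near genes that make glutathione, reduce thioredoxin and detoxify quinones and haem. Cystine that enters through xCT is reduced to cysteine, the limiting amino acid for glutathione. Slc7a11 is also a target of ATF4, the transcription factor of the amino acid response, which binds a different element.

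The libraries fell into 2 sets by depth. Libraries 1 to 3 of each group held 3941032 to 4761017 total exon reads, and libraries 4 and 5 held 6142562 to 8738115; the labels name no batch. The sort antigen gene Madcam1 was at 0 to 2.37 CPM (a gene's exon reads as a share of the TMM-scaled total of its library) in MCi and at 30.2 to 85 CPM in MRC, as the labels give. MRC4 and MRC5 stood apart in other ways. The 12 epithelial markers summed to 15564 and 19551 CPM there, against 15 to 1334 CPM throughout MCi and 10.7 to 2304 CPM in MRC 1 to 3, although the sort removed EpCAM1-positive cells; all 12 were higher in MRC4 and MRC5 than in each of the other 8 libraries. The 9 mesenchymal markers summed to 26486 and 26412 CPM there, against 45161 to 134989 CPM in the rest. The share of mitochondrial genes among exon reads was 6.66% for MRC4, 4.28% for MRC5 and 0.706% to 1.58% elsewhere. The part of these differences in the results on the 10 genes was not tested; values without these libraries stand beside those of the 10 genes and of the pathway lists.

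In MRC 1 to 3 Slc7a11 was high while the other 9 genes lay near their MCi levels or, for Nqo1, below them. In MRC4 and MRC5 the pattern was different. There 8 of the other 9 genes were above each of the other 8 libraries in CPM, beside 21.3% of all genes tested. In deposited TPM there were 7, beside 10.9%. Slc7a11, at 25.9 and 8.22 CPM, was below its levels in MRC 1 to 3, which began at 26.9 CPM. Hmox1 alone was at its lowest there, beside 19.1% of all genes in CPM and 43.4% in TPM. Over all 10 libraries 0 of the 9 passed the edgeR test, beside 0.0742% of all genes as higher and 0.363% as lower in MRC. Before adjustment 3 were under 0.05, beside 16.7% of all genes, and 1 passed as higher in DESeq2, beside 4.54%.

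In the order of library numbers, 1 to 5, Slc7a11 (ENSMUSG00000027737, GRCm38 chromosome 3, 49892526 to 50443614, minus strand) was at 2.92, 4.2, 7.15, 0.552 and 2.48 CPM across the MCi libraries. The MRC libraries held 26.9, 38.2, 49.8, 25.9 and 8.22 CPM. On this scale every MRC library lay above every MCi library, with MRC5 only just above MCi3. In the deposited values MRC5 lay below MCi3, at 1.34 against 1.98 TPM and 0.547 against 0.602 RPKM. The means were 3.46 ± 2.44 CPM for MCi and 29.8 ± 15.5 CPM in MRC (SD, n = 5 each), an 8.62-fold difference (log2 3.14). This difference includes the levels in MRC 1 to 3 on which the set was chosen. The log2 difference was 3.01 within libraries 1 to 3, 3.4 within libraries 4 and 5 and 3.52 without MRC4 and MRC5, and ran from 2.84 to 3.57 when single libraries were left out. Within the deeper set it rests on few reads: 4 exon reads in MCi4 and 24 in MCi5, against 167 and 42 in MRC4 and MRC5.

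Reads spanning an exon-exon junction of Slc7a11 numbered 3, 2, 3, 0 and 3 across the MCi libraries and 15, 25, 34, 28 and 18 across the MRC libraries. These reads are part of the exon reads on which the set was chosen, so they are a description and no separate evidence. Their counts, not scaled to depth, did not overlap between the groups. The share of all genes for which this holds was not taken. Intron reads of Slc7a11 did not divide the groups in this way, with 14 to 25 in MCi and 10 to 40 in MRC. Counting exon and intron reads together therefore gave a smaller log2 difference of 2.36. Of the 5 genes that overlap Slc7a11 in the deposited tables, only Gm37854 has an exon length above 0, and it held 1 exon read in all. The others could hold no exon reads.

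The Slc7a11 promoter is shown because the window searched matches the ATF4-type element and not the NRF2-type one. Promoter windows of 250 bases before to 50 after the start were available from RefSeq (GRCm38.p6) for 7 of the 10 genes, as 9 windows. Matches were looked for on both strands to TGACNNNGC, the core of the antioxidant response element, and to TGATGNAA, the C/EBP-ATF response element bound by ATF4. The stretch on chr3:50443633-50443699 (minus strand, written 5′ to 3′ along the gene) has TGATGNAA matches in capitals, starting 66 and 47 bases before the start, the second on the opposite strand.
Slc7a11: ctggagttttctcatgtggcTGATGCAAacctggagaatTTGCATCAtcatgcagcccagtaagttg
Of 32851 promoter windows of this length in the table, 3.97% held TGATGNAA at least once and 0.07% held it at least 2 times. The Slc7a11 window held no TGACNNNGC, which 12.4% of windows hold. No match says only that these letters are not in this window.

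Windows of 4 other genes held TGACNNNGC once, for Txnrd1 in 1 of its 3 windows. The 3 that lie before the start are shown for comparison, with the match in capitals: Gclm on chr3:122245403-122245451 (plus strand), Txnrd1 on chr10:82859094-82859142 (plus strand) and Nfe2l2 on chr2:75704875-75704913 (minus strand).
Gclm: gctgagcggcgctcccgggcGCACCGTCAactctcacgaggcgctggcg
Txnrd1: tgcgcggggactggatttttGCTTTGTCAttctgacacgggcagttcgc
Nfe2l2: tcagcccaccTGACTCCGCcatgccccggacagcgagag
These begin 134, 92 and 240 bases before the start, and the match of Srxn1 lies 29 bases after it. None of these windows held TGATGNAA, and those of Slc3a2 and Nqo1 held neither motif. The matches are letters in a window and were not tested as binding sites.

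**Figure D1:**
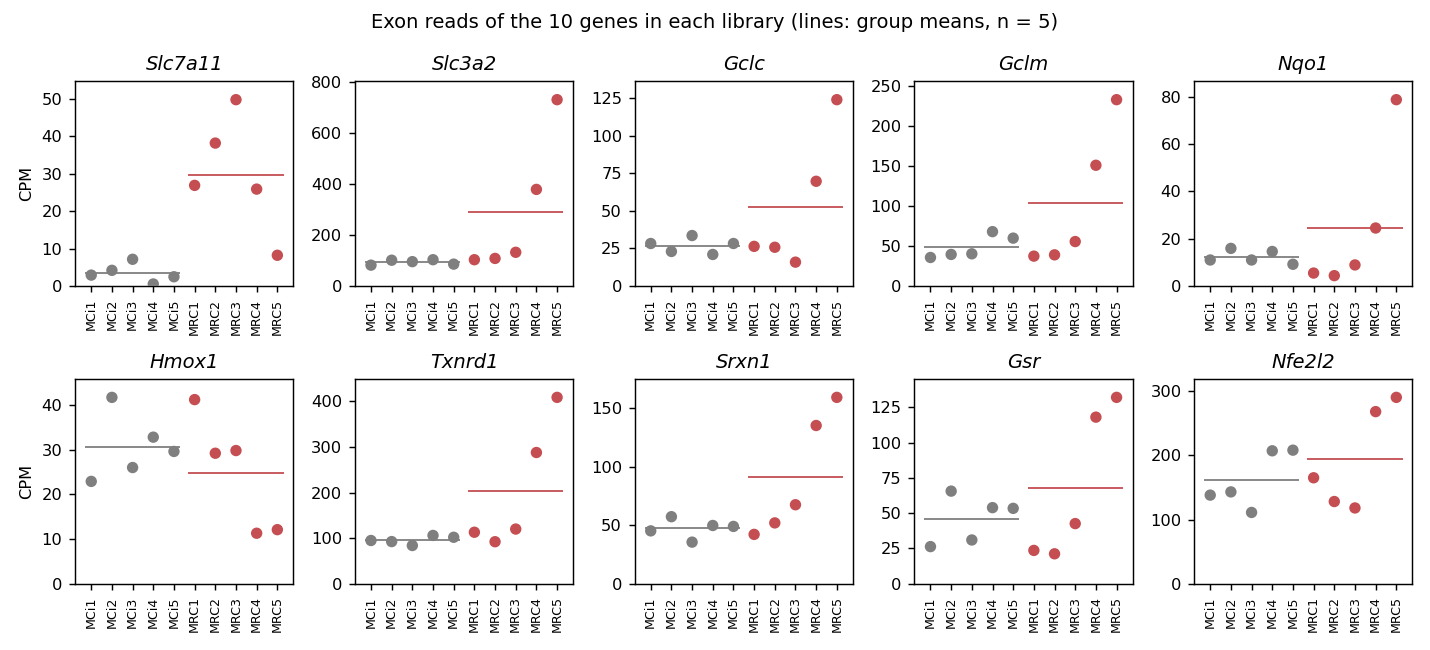
Exon reads in CPM ( linear axes from 0, a scale for each gene) of the 10 genes in MCi 1 to 5 (grey) and MRC 1 to 5 (red), with lines at the group means. Slc7a11 is highest in MRC3 at 49.8 CPM and at 8.22 CPM in MRC5, while Slc3a2 reaches 729 CPM in MRC5 and Hmox1 is lowest in MRC4 at 11.3 CPM.

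Slc3a2 (ENSMUSG00000010095, chromosome 19, 8706882 to 8723369, minus strand) encodes the 4F2 heavy chain that carries xCT and several other amino acid transporters to the membrane. It was at 81.7, 101, 95.4, 103 and 85.7 CPM across the MCi libraries and at 103, 108, 132, 378 and 729 CPM across the MRC libraries. MRC 1 to 3 lay at or just above the top of the MCi range, and MRC4 and MRC5 far above it. The log2 fold change was 1.65 ± 0.54 (SE; edgeR quasi-likelihood adjusted p = 0.202), and 0.3 without MRC4 and MRC5 (edgeR adjusted p = 0.474). Slc3a2 was the only one of the 9 whose groups did not overlap on this scale, which held for 1.1% of all genes tested in the higher direction. On unscaled totals, deposited RPKM and deposited TPM the groups overlapped. It was also the only 1 of the 9 that DESeq2 called (adjusted p = 0.0256), a test that called 4.54% of all genes as higher in MRC. Slc7a11 and its partner were thus highest in different MRC libraries: Slc7a11 in MRC3 and Slc3a2 in MRC5.

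Glutathione synthesis starts with glutamate-cysteine ligase, whose catalytic subunit is encoded by Gclc and whose modifier subunit is encoded by Gclm. Gclc (chromosome 9, 77754535 to 77794485) was at 28.3, 23, 33.6, 21 and 28.3 CPM across the MCi libraries and at 26.4, 25.8, 15.9, 69.7 and 124 CPM across the MRC libraries. Gclm (chromosome 3, 122245557 to 122270732) was at 35.7, 39.5, 40.3, 68 and 59.9 CPM throughout MCi and at 37.4, 39, 55.6, 151 and 233 CPM through MRC. For both genes MRC 1 to 3 overlapped MCi and MRC4 and MRC5 did not. The log2 fold changes were 0.98 ± 0.5 for Gclc and 1.09 ± 0.52 for Gclm (SE; edgeR adjusted p = 0.367 and 0.324), and −0.24 and −0.15 without MRC4 and MRC5 (edgeR adjusted p = 0.747 and 0.871). The level of Gclm is uncertain, since only 37.6% to 50.3% of its exon reads were unique, against 92.3% or more for Slc7a11. Its unique reads, 59 to 561 per library, were about as many as its junction reads, 58 to 561, and an antisense gene, Gm17494, with 184 exon reads in all, overlaps it in a protocol that does not mark strand. On unique reads its log2 fold change was 1.11.

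Gsr encodes glutathione reductase, which restores oxidised glutathione with NADPH. It was at 26.3, 65.6, 31, 53.9 and 53.4 CPM across the MCi libraries and at 23.6, 21.2, 42.6, 118 and 132 CPM across the MRC libraries. MCi alone spanned the range of MRC 3 and more, and MRC 1 and 2 were the lowest libraries of all. The log2 fold change was 0.56 ± 0.54 (SE; edgeR adjusted p = 0.66), and −0.66 without MRC4 and MRC5 (edgeR adjusted p = 0.523).

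On the thioredoxin side, Txnrd1 encodes cytosolic thioredoxin reductase and Srxn1 encodes sulfiredoxin, which repairs over-oxidised peroxiredoxins. Txnrd1 was at 94.9, 92.5, 83.9, 106 and 102 CPM across the MCi libraries and at 113, 92.2, 120, 288 and 409 CPM across the MRC libraries. Srxn1 was at 45.1, 57.2, 35.5, 49.7 and 48.9 CPM throughout MCi and at 42.1, 51.9, 67.4, 135 and 159 CPM through MRC. Both were level across MCi and MRC 1 to 3 and higher in MRC4 and MRC5. The log2 fold changes were 1.1 ± 0.4 for Txnrd1 and 0.96 ± 0.36 for Srxn1 (SE; edgeR adjusted p = 0.227 and 0.239), and 0.18 and 0.19 without MRC4 and MRC5 (edgeR adjusted p = 0.691 and 0.773).

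Nqo1 encodes an NAD(P)H quinone oxidoreductase and Hmox1 encodes haem oxygenase-1, classic inducible products of the NRF2 programme. Nqo1 was at 11, 15.9, 11, 14.6 and 9.19 CPM across the MCi libraries and at 5.48, 4.39, 8.91, 24.5 and 78.7 CPM across the MRC libraries. MRC 1 to 3 lay below all MCi libraries and MRC4 and MRC5 above all of them. The log2 fold change of Nqo1 was 1.0 ± 0.72 (SE; edgeR adjusted p = 0.535), and its sign rested on MRC5, without which it was −0.16; without MRC4 and MRC5 it was −0.97 (edgeR adjusted p = 0.237). Hmox1 was at 22.9, 41.7, 26, 32.8 and 29.6 CPM throughout MCi and at 41.2, 29.2, 29.8, 11.3 and 12.1 CPM through MRC. Hmox1 thus went the other way, with MRC 1 to 3 inside the MCi range and MRC4 and MRC5 below it (log2 −0.31 ± 0.35, edgeR adjusted p = 0.721; 0.13 without MRC4 and MRC5, adjusted p = 0.878).

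Nfe2l2, the gene of NRF2 itself, was at 138, 143, 111, 207 and 208 CPM across the MCi libraries and at 165, 128, 118, 268 and 290.2 CPM across the MRC libraries. It was higher in libraries 4 and 5 of both groups than in libraries 1 to 3. The log2 fold change was 0.28 ± 0.3 (SE; edgeR adjusted p = 0.708), and −0.23 without MRC4 and MRC5 (edgeR adjusted p = 0.754). In deposited TPM the MRC4 and MRC5 values, 148 each, lay below the 180 and 186 of MCi4 and MCi5, so the order of the groups in the deeper libraries depends on the scale. Changes in NRF2 protein are not measured by these libraries.

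Together, 0 of the 9 genes passed an edgeR adjusted p of 0.05 in either direction, where 0.0742% of all 12127 genes passed as higher and 0.363% as lower in MRC. An unadjusted p under 0.05 was reached by 3 of the 9 (Slc3a2, Txnrd1 and Srxn1) and by 16.7% of all genes. Of the 9, 8 had a log2 fold change above 0, with a median of 0.98 beside 0.01 for all genes. Without MRC4 and MRC5 the median was −0.15, 4 were above 0 and 0 passed. MRC4 and MRC5 were above each of the other 8 libraries in 8 of the 9 genes, which held for 21.3% of all genes, and below them in 1 (Hmox1), which held for 19.1% of all genes. In deposited TPM they were above the others in 7 of the 9, with Nfe2l2 no longer among them, and below in 1, beside 10.9% and 43.4% of all genes.

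The contrast was then fitted within each set of libraries, an alternative chosen after seeing the data. Within libraries 1 to 3, 0 of the 9 genes passed (edgeR; 0.801% of all genes did) and the median log2 fold change was 0.15. The largest departures there were the lower values of Nqo1 (−1.0 ± 0.39, edgeR adjusted p = 0.414) and Gsr (−0.49 ± 0.41, edgeR adjusted p = 0.843). Within libraries 4 and 5, 6 of the 9 were higher in MRC, as were 15.5% of all genes, and Hmox1 was lower (−1.47 ± 0.28, edgeR adjusted p = 0.0155), as were 10.7% of all genes. The higher ones were Slc3a2 (2.49 ± 0.33), Gclc (1.9 ± 0.33), Txnrd1 (1.68 ± 0.2), Gclm (1.52 ± 0.24), Srxn1 (1.52 ± 0.17) and Gsr (1.16 ± 0.17), with edgeR adjusted p from 0.00245 to 0.0107. Nqo1 (2.05 ± 0.58, adjusted p = 0.051) and Nfe2l2 (0.37 ± 0.15, adjusted p = 0.128) did not pass. Each group has 2 libraries in this fit, and it is in these MRC libraries that epithelial transcripts were high.

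**Figure D2:**
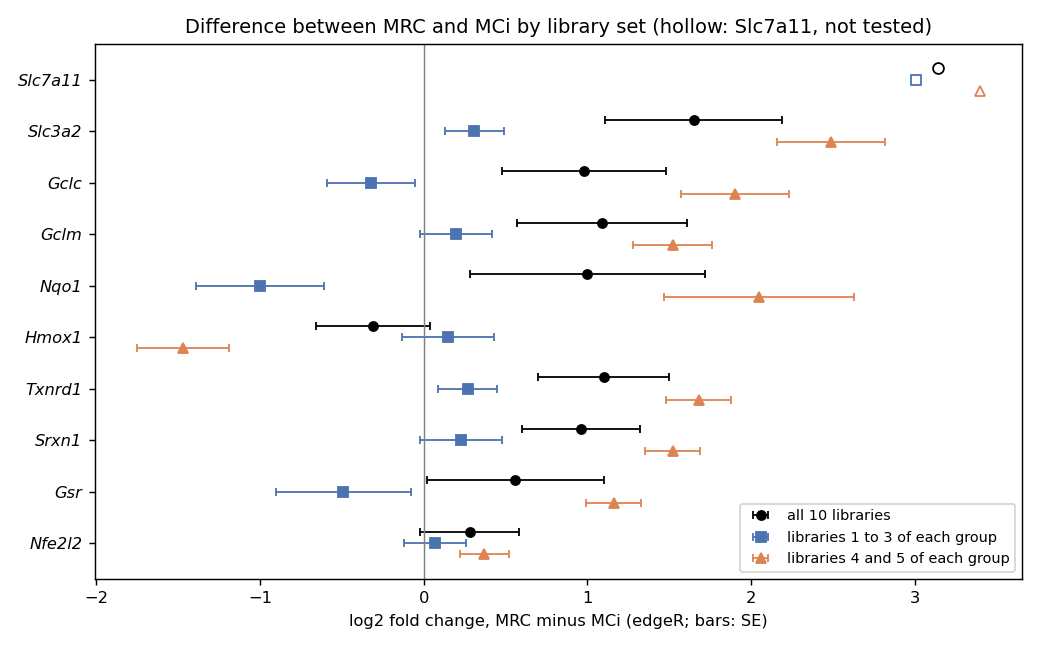
Log2 fold change of each gene, MRC minus MCi (edgeR; bars are SE), over all 10 libraries (black), libraries 1 to 3 of each group (blue) and libraries 4 and 5 (orange); Slc7a11 is hollow because it chose the set and was not tested. Slc7a11 lies between 3.01 and 3.4 in all 3 fits, whereas Slc3a2 moves from 0.31 to 2.49 and Hmox1 from 0.15 to −1.47 between the sets.

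The difference between the sets was tested directly, as a term for the contrast in libraries 4 and 5 minus that in libraries 1 to 3. It was above 0 in 6 of the 9 genes and below 0 in 1 at an edgeR adjusted p of 0.05, against 5.76% and 4.68% of all genes. Its median over the 9 was 1.49 on the log2 scale beside −0.03 over all genes. The largest were those of Nqo1 (3.13 ± 0.71), Gclc (2.3 ± 0.45) and Slc3a2 (2.26 ± 0.38), and that of Hmox1 was −1.54 ± 0.42 (edgeR adjusted p = 0.0231, 0.015, 0.0101 and 0.0418). Gsr (1.72 ± 0.57, adjusted p = 0.081) and Nfe2l2 (0.37 ± 0.27, adjusted p = 0.414) did not pass. These calls depend on single libraries: 0 of the 9 passed without MCi4 or without MCi5, where the count over all genes dropped from 1266 to 13 and 10. There were 3 without MRC1, MRC2 or MRC5, 4 without MCi1 or MCi2, 5 without MCi3, 6 without MRC4 and 8 without MRC3. Leaving out library 4 or 5 of a group leaves 1 library in that arm of the deeper set, which is then assumed to vary like the others. Slc3a2, Gclc and Txnrd1 each passed in 8 of the 10 fits that left a library out.

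Levels were compared between genes in the deposited TPM, which are per length. In MCi, Nfe2l2 was highest (139 ± 41 TPM, SD, n = 5), followed by Txnrd1 (91.8 ± 10.9) and Slc3a2 (86.2 ± 6.95), whose ranges over libraries overlap. Srxn1, Gsr and Hmox1 followed at 45.8 to 54.5 TPM and were not separable by their spread. Nqo1, Gclc and Gclm came next at 25.4 to 25.7 TPM, also within each other's spread, and Slc7a11 was last at 0.944 ± 0.667 TPM. Slc7a11 remained last in MRC 1 to 3 at 9.45 ± 2.75 TPM (n = 3), where its range met that of Nqo1 at 11.8 ± 4.27 TPM. In MRC4 and MRC5 Slc3a2 was first, at 224 and 399 TPM, and Slc7a11 last, at 4.57 and 1.34 TPM. Hmox1 moved from the sixth place in MCi to next to last there, at 11 and 10.8 TPM.

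**Figure D3:**
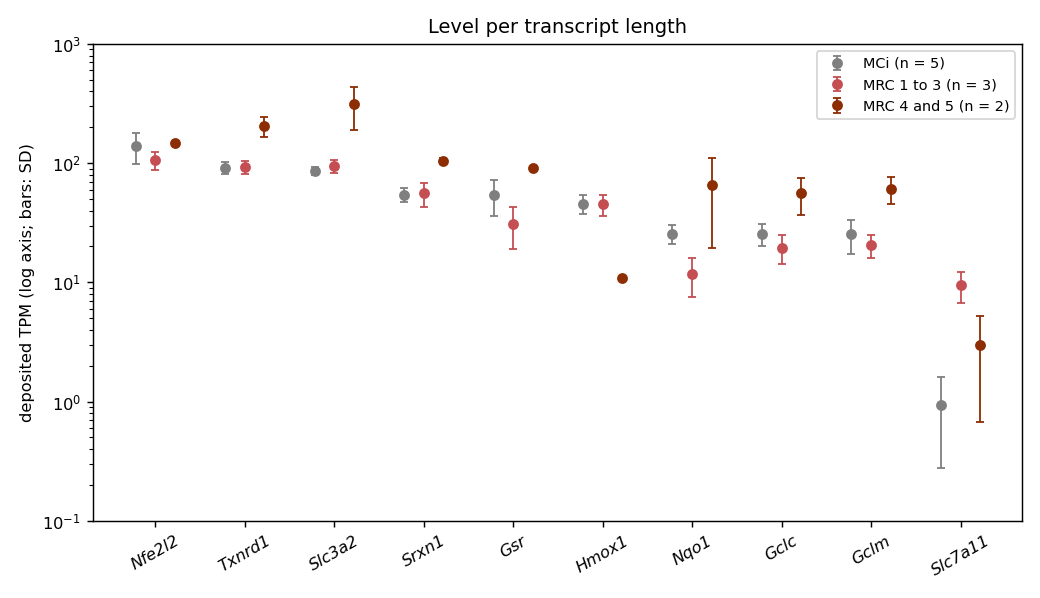
Deposited TPM of the 10 genes (log axis; points are means and bars SD) in the 5 MCi libraries (grey), MRC 1 to 3 (red) and MRC4 and MRC5 (brown), ordered by the MCi mean. Slc7a11 is the lowest in all 3, from 0.944 TPM in MCi to 9.45 TPM in MRC 1 to 3, and Hmox1 is the only gene whose brown point, from 11 and 10.8 TPM, lies below both other points.

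Genes around these 10 were read from 6 lists with 88 genes, of which 84 were tested. None passed in edgeR, in either direction; an unadjusted p under 0.05 was reached by 28, beside 16.7% of all genes. In DESeq2 10 passed as higher and 2 as lower, beside 4.54% and 2.48% of all genes. Their median log2 fold change was 0.21 beside 0.01 for all genes, and 0.06 beside −0.01 without MRC4 and MRC5. Within libraries 1 to 3 a single gene passed, beside 0.801% of all genes. Within libraries 4 and 5, where 85 were tested, there were 32 higher and 6 lower in MRC, beside 15.5% and 10.7% of all genes. The difference between the sets passed in 17 as higher and 3 as lower, beside 5.76% and 4.68%.

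Regulators of NRF2 came first among the lists. Keap1, whose product binds NRF2 for degradation, was at 51.8 to 78.9 CPM throughout MCi and 51 to 65.6 CPM in MRC (log2 −0.09 ± 0.16, edgeR adjusted p = 0.822). Of the 11 regulators, 0 passed over all libraries or within either set, and the median log2 fold change was 0.06 (−0.07 without MRC4 and MRC5). Bach1, Mafk and Cul3, 3 of the 11, were higher in MRC4 and MRC5 than in each of the other 8 libraries. This held for 21.3% of all genes tested. The one with the smallest p was Bach1, a repressor that competes with NRF2 for its elements, at 8.58 to 13.2 CPM throughout MCi and 12.4, 11.1, 10.7, 33.5 and 20.4 CPM across the MRC libraries (0.77 ± 0.35, edgeR adjusted p = 0.294). Sqstm1, whose product can sequester KEAP1, and Rbx1, a subunit of the ligase that ubiquitinates NRF2, differed by log2 −0.25 and −0.23 (adjusted p = 0.614 and 0.604, edgeR).

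Genes of glutathione use, thioredoxin and NADPH supply differed in part between the library sets. By the edgeR test of that difference, 3 of 19 glutathione genes passed as higher in libraries 4 and 5 and 1 as lower. These counts were 3 and 1 of 11 for thioredoxin and peroxiredoxin genes, and 7 and 0 of 18 for NADPH supply and detoxification, beside 5.76% and 4.68% of all genes, so most genes of each list did not pass. Of 19 glutathione genes tested, 0 passed within libraries 1 to 3, and 10 were higher and 3 lower in MRC within libraries 4 and 5. For thioredoxin and peroxiredoxin genes these counts were 0 of 11, then 5 higher and 1 lower, and for NADPH supply and detoxification 0 of 18, then 9 higher and 1 lower; 15.5% of all genes were higher and 10.7% lower in libraries 4 and 5. The medians over all libraries were 0.56, 0.26 and 0.63 for the 3 lists, and 0.26, 0.03 and 0.03 without MRC4 and MRC5. Glrx, which encodes glutaredoxin, was at 27.4 to 57.2 CPM throughout MCi and at 21.4, 30.2, 140.2, 381 and 657 CPM across the MRC libraries; its difference between the sets did not pass (3.16, edgeR adjusted p = 0.128). Txn1, which encodes thioredoxin, was at 105 to 171 CPM throughout MCi and at 113, 97.3, 187, 502 and 643 CPM through MRC, and its difference between the sets passed (2.29, edgeR adjusted p = 0.0141). Idh1, a source of cytosolic NADPH, was at 81.9 to 125 CPM throughout MCi and at 129, 154, 181, 392 and 1177 CPM through MRC, and its difference between the sets also passed (2.09, edgeR adjusted p = 0.0363).

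Among the genes of these lists with a log2 fold change below 0, Abcc4 and Akr1b8 had the smallest p. Abcc4, a membrane exporter of the MRP family, was at 25.3 to 40.6 CPM throughout MCi and at 18.1, 12.9, 14.8, 11.6 and 24.1 CPM across the MRC libraries (−0.99 ± 0.24, edgeR adjusted p = 0.11). Akr1b8, an aldo-keto reductase, was at 22.1 to 54.1 CPM throughout MCi and at 11.2 to 18.8 CPM in MRC (−1.29 ± 0.29, edgeR adjusted p = 0.088). Both missed the threshold over all genes in edgeR and passed it in DESeq2 (adjusted p = 0.00788 and 0.00278). Their log2 differences were −1.06 and −0.99 for Abcc4 and −1.37 and −1.15 for Akr1b8 within libraries 1 to 3 and within libraries 4 and 5, and the difference between the sets did not pass (edgeR adjusted p = 0.872 and 0.7).

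The amino acid response is another route to Slc7a11. Of 16 genes tested in that list, 0 passed over all libraries, and the median log2 fold change was −0.08 (−0.1 without MRC4 and MRC5). Within libraries 1 to 3 only Vldlr passed, beside 0.801% of all genes. Within libraries 4 and 5 there were 4 higher (Atf4, Atf3, Trib3 and Cth) and 1 lower (Vldlr) in MRC, beside 15.5% and 10.7% of all genes. The difference between the sets passed in Atf4, Atf3 and Asns as higher and in Vldlr as lower, beside 5.76% and 4.68% of all genes. Atf4 was at 146, 171, 145, 71.3 and 61.5 CPM across the MCi libraries. It was at 137, 129, 150, 172 and 121 CPM across the MRC libraries, and MRC 1 to 3 overlapped MCi 1 to 3. Changes in ATF4 protein are not measured by these libraries, and its part in the level of Slc7a11 was not tested. Among its targets, Asns was at 8.82 to 16.6 CPM throughout MCi and at 1.67, 5.94, 6.09, 24.2 and 16.8 CPM across the MRC libraries. Trib3 was at 1.67 to 4.86 CPM throughout MCi and at 0.238, 2.07, 4.35, 21 and 30.5 CPM across the MRC libraries, and Cth at 0 to 6.81 CPM and at 0, 2.32, 17.8, 87.1 and 118 CPM. Of the 17 listed, these 3 were higher in MRC4 and MRC5 than in each of the other 8 libraries, beside 21.3% of all genes. Another 6 (Ddit4, Psat1, Phgdh, Vldlr, Nupr1 and Aldh1l2) were lower there than in each of the others, beside 19.1%. Vldlr, a lipoprotein receptor gene in the list, was at 13.4 to 26.7 CPM throughout MCi and at 111, 63.8, 61.7, 4.66 and 6.07 CPM across the MRC libraries. Vldlr was higher in MRC within libraries 1 to 3 (1.9, edgeR adjusted p = 0.0194), lower within libraries 4 and 5 (−1.49, edgeR adjusted p = 0.0487), and the difference between the sets passed (−3.32, edgeR adjusted p = 0.00739).

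Other light chains can pair with the Slc3a2 product. Slc7a5, the leucine transporter light chain, was at 9.52 to 14.1 CPM throughout MCi and at 11.7, 9.81, 9.78, 4.97 and 5.87 CPM across the MRC libraries, lowest where Slc3a2 was highest. Slc7a7 and Slc7a8, which encode light chains of intestinal and renal epithelium, were highest in MRC4 and MRC5. Slc7a7 was at 12.6 to 18.5 CPM throughout MCi and at 24.3, 23.5, 55.4, 265 and 339 CPM in MRC, and Slc7a8 at 7.63 to 17.9 CPM and at 4.76, 6.46, 76.5, 314 and 544 CPM. Slc3a1, the heavy chain of another transporter, was at 0 to 6.18 CPM throughout MCi and reached 154 and 229.7 CPM in MRC4 and MRC5. Over all libraries 0 of the 10 transporters tested passed (median 0.59, and 0.47 without MRC4 and MRC5), and within libraries 4 and 5 there were 4 higher (Slc7a7, Slc7a8, Slc7a9 and Slc3a1), beside 15.5% of all genes.

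**Figure D4:**
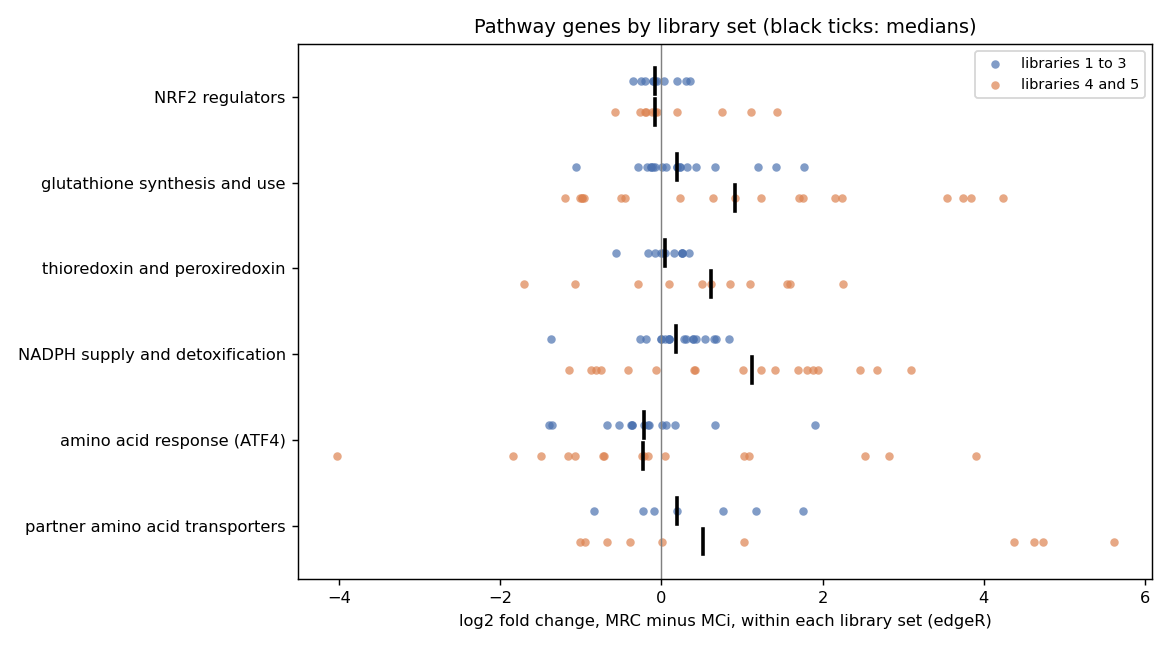
Log2 fold change, MRC minus MCi (edgeR), of each tested gene of 6 lists, within libraries 1 to 3 (blue) and within libraries 4 and 5 (orange); black ticks are list medians. The NRF2 regulators have a median of −0.08 in both sets, while that of NADPH supply and detoxification is 0.19 within libraries 1 to 3 and 1.12 within libraries 4 and 5.

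Markers of other cells were set beside these values. Macrophage and myeloid markers, of cells that are a source of Hmox1 in many tissues, summed to 26.2 to 47.9 CPM in MCi. They summed to 20.7 to 23.7 CPM in MRC 1 to 3 and to 14.8 and 47 CPM in MRC4 and MRC5. Lyz2, the largest part of the sums in MCi and MRC 1 to 3, was at 16.2 to 36.9 and 10.5 to 12.7 CPM there. It was at 0.466 and 16.6 CPM in MRC4 and MRC5. Ptprc did not follow it, at 0.138 to 2.62 CPM in MCi, 0.775 to 4.78 CPM in MRC 1 to 3 and 3.26 and 10.8 CPM in MRC4 and MRC5. Cd68 and Cd163 were at 0 in MRC4 and MRC5, but held only 17 and 2 exon reads in all of MCi. Of the 12 markers 0 were lower in MRC4 and MRC5 than in each of the other 8 libraries, beside 19.1% of all genes. Of these 12 markers 2, Fcer1g (3.11 and 5.87 CPM) and Tyrobp (2.8 and 2.94 CPM), were higher in MRC4 and MRC5 than in each of the other 8 libraries. Both had too few reads to be tested, and the same held for 21.3% of all genes tested. Mesothelial markers summed to 241, 157, 21.5, 1334 and 1345 CPM across the MCi libraries and to 0.952 to 13.9 CPM in MRC, highest in the MCi libraries in which Nfe2l2 and Gclm were highest. The 12 immediate early and heat shock genes of the dissociation response summed to 10757 to 16243 CPM in MCi 1 to 3, 5919 and 5771 CPM in MCi4 and MCi5, 10820 to 16216 CPM in MRC 1 to 3, and 8756 and 6729 CPM in MRC4 and MRC5. Their part in the results was not tested.

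The genes whose profile over the 10 libraries was most like that of Slc7a11 were ranked by Pearson r of log2 CPM among 9579 genes of at least 10 CPM, as a description. They were Cpxm1 (0.956), Picalm (0.946), Chid1 (0.926), Enpp2 (0.911), Enpp3 (0.91) and Csf2rb (0.891), and the points share 2 groups of libraries. Cpxm1, a carboxypeptidase-like gene, was at 153 to 299 CPM throughout MCi and at 560.3, 631, 668, 664 and 241 CPM across the MRC libraries. It shared with Slc7a11 the low value of MRC5. The same r lay between −0.24 (Nqo1) and 0.27 (Slc3a2) for the other 9 genes.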

How the data were processed

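The authors deposited one table per library with read counts (exon reads in total, those that are unique, and exon plus intron reads) and RPKM and TPM values, per the file headers; the build, GRCm38, is from the submitters' processing notes. For the aligner, the counter and the annotation, nothing was given in the sources used here. cDNA was made with the SMART-Seq v4 kit, per the labels.

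Exon read counts were tested with edgeR 4.0.16 (R 4.3.3; filterByExpr, minimum count 10 and total 15; TMM; robust quasi-likelihood fit; Benjamini-Hochberg over 12127 genes, threshold 0.05). The SE is the absolute log2 fold change over the square root of F. DESeq2 1.42.0 and limma 3.58.1 on log2(RPKM + 1) and log2(RPKM + 0.1) were alternatives. A count of 3 reads equals 0.343 to 0.761 CPM of unscaled totals; without molecular identifiers such floors cover counting error only. No 2 libraries were identical.

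The members, the 15 other gene lists and the tests were chosen with earlier results of these data known. The rule names the 10 members, up to 3 genes per list with the smallest p, and the 6 profiles most like Slc7a11. Keap1, Mafk, Cul3, Atf4, Atf3, Asns, Slc7a5, Slc7a9 and other list genes named beyond it were chosen after their values were seen. The procedure was tested on simulated data. Plots used matplotlib 3.10.9.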

Additional observations from a re-analysis of the deposited data

Results flagged for a closer look

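Among the MRC libraries, Nqo1 in MRC5 stood apart: its gap to the next library was 0.729 of the whole range, above the limit of 0.71 for 5 samples. Chance gives about 1 such case in 20 groups, and 20 groups (10 genes in 2 groups) were looked at.

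The MRC minus MCi difference was not the same in libraries 4 and 5 as in libraries 1 to 3 for 7 genes, by the edgeR test of the difference itself. Of these, 6 were above 0 and 1 below, beside 5.76% and 4.68% of all genes. The split into sets was chosen after seeing the data. The 7 became 3 without MRC1 or without MRC2, 4 without MCi1 or without MCi2, 5 without MCi3 and 8 without MRC3. Leaving out library 4 or 5 of a group leaves 1 library in that arm. The calls were fewer in each such fit, most of all without MCi4 or without MCi5, so they depend on single libraries. On the log2 scale the MRC minus MCi difference was larger in libraries 4 and 5 by 2.26 for Slc3a2, 2.3 for Gclc, 1.4 for Gclm, 3.13 for Nqo1, 1.49 for Txnrd1 and 1.36 for Srxn1, and the change was −1.54 for Hmox1. MRC4 and MRC5 are also the libraries with 15564 and 19551 CPM of epithelial markers, whose part in these differences was not tested.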

How the results depend on the processing

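Of 12127 genes 53 passed in edgeR and 851 with DESeq2. Fits on fewer libraries and limma on RPKM filtered the genes anew, so their totals can differ. There were 95 of 11866 within libraries 1 to 3 and 3460 of 13203 within libraries 4 and 5. Without MRC4 and MRC5 128 passed, and with the library set as a covariate 206. With limma on log2(RPKM + 1) and log2(RPKM + 0.1) there were 244 and 159, and leaving out single libraries gave 16 to 49. The cause was not tested. Of the 9 members 0 passed, except 1 with DESeq2 and 7 within libraries 4 and 5. Of the pathway genes 0 passed, except 12 with DESeq2, 38 within libraries 4 and 5, 2 under either limma scale (Abcc4 and Akr1b8), and 1 each without MRC4 and MRC5 (Vldlr), within libraries 1 to 3 (Vldlr) and with the covariate (Akr1b8). The 7 members whose difference changed between the sets became 0 to 8 when single libraries were left out.

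Signs turned without MRC4 and MRC5 for Gclc (−0.239), Gclm (−0.147), Nqo1 (−0.968), Hmox1 (0.125), Gsr (−0.659) and Nfe2l2 (−0.233), and within libraries 1 to 3 for Gclc (−0.316), Nqo1 (−1.0), Hmox1 (0.145) and Gsr (−0.486). With limma at a pseudocount of 1 and of 0.1 they turned for Nqo1 (−0.0233 and −0.0926), Gsr (−0.000508 and −0.0153) and Nfe2l2 (−0.0269 and −0.0279), scales that moved the median of all genes by −0.22 and −0.27. Leaving out single libraries moved Nqo1 between −0.164 and 1.26. With the replicate number as a block 49 genes passed and 0 members. Deviations from the group means correlated at 0.558, −0.254, 0.0624, 0.346 and 0.485 between libraries numbered 1 to 5 in both groups. These values do not settle whether same-numbered libraries are pairs, and the main fit did not take them as pairs. The low counts of Slc7a11 in MCi (4 to 30 reads) limit its fold difference.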
